A study of Mus musculus with 2 samples.

Results

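Chromatin genes whose symbols begin with the standard family names of histone-modifying, nucleosome-remodelling, Polycomb, chromobox and DNA methylation proteins were compared between mouse embryoid bodies of 2 genotypes. The members were all genes with such a symbol and a probe that has 1 gene symbol in the platform annotation: 82 genes on 90 probes, of 13697 genes and 32440 probes in all. Genes of these families under other symbols, such as Bmi1, Carm1 and Ehmt2, are not members and are counted with the partners further on. The rule uses names and no measured value, but it and the gene lists further on were set with earlier results of these data known. Both groups were embryoid bodies, the clusters that embryonic stem (ES) cells form as they differentiate, treated with 2 µM retinoic acid and taken at day 4. One group came from Elongin A+/+ and the other from Elongin A-/- ES cells, the second lacking by its label the gene of the large subunit of Elongin, a stimulator of RNA polymerase II elongation. How the Elongin A-/- line was made and how many clones were used were not given in the sources used here. There was 1 array per genotype, so no difference below was tested against replicate error, and the effects of genotype, line, culture and hybridisation cannot be told apart. The question is which genes of the chromatin machinery differ in transcript level between the genotypes.

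Histone-modifying enzymes add or remove acetyl and methyl groups on histone tails, remodellers of the Smarc and CHD families move nucleosomes with the energy of ATP, and DNA methyltransferases mark CpG dinucleotides. Polycomb repressive complex 2 (PRC2) methylates histone H3 and Polycomb repressive complex 1 (PRC1) ubiquitinates histone H2A, and together they keep developmental genes such as the Hox clusters silent. Retinoic acid drives ES cells towards neural fates, and Polycomb-marked genes are among those that open in that process.

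Of the 82 members, 73 (89.0%) were measured, and of all 13697 genes 69.9% were. Measured means above a floor set at the array median, a normalised intensity of 1.03, on at least 1 array. Of the 73 members 64 were above it on both arrays, 6 on the Elongin A+/+ array alone and 3 on the Elongin A-/- array alone. The other 9 lay below it on both. A member above the floor on 1 array has only a bound on its difference, written as "at least", and counts of genes at a given fold take it at that bound. A log2 difference below 0 means a lower level on the Elongin A-/- array, with values under the floor set to it. The error available here is how far probes of 1 gene differ from each other, an SD of 0.43 on the log2 scale over 224 genes, and it covers neither cultures nor arrays. Differences smaller than this SD were found in 51 of the 73 measured members (69.9%) and in 56.9% of all measured genes. Every family median given below for the main setting was also smaller than it. The probe of Eloa, the Elongin A gene, gave 3.87 on the Elongin A+/+ and 3.57 on the Elongin A-/- array. No source used here gives its position relative to the deletion, so it checks nothing about the labels. Median deposited intensities were 1.02 and 1.03.

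Most of the chromatin machinery was present at similar levels on the 2 arrays. With bounds counted at their bound, no measured member was at least 2-fold higher on the Elongin A-/- array, where 6.76% of the 9568 measured genes were. Pcgf3, 1 of the bounds, had values of 0.80 and 1.62, just over 2-fold apart before the floor was applied. Only Kdm2a, Aebp2, Phc3 and Pcgf5 were at least 2-fold lower, 4 of 73, where 5.97% of measured genes were. At 1.5-fold, 6 members were higher and 10 lower, where 15.8% and 14.8% of measured genes were. The share lower was thus near that of all genes, and the share higher was below it. Within 1.5-fold of each other on the 2 arrays were 57 members (78.1%), and 69.4% of all measured genes. The interquartile range of the members' log2 differences ran from -0.36 to 0.16, and that of all measured genes from -0.36 to 0.36. The members' median was -0.10 and that of all measured genes -0.02, with 31 members higher and 42 lower by any margin. Of all measured genes 48.4% were higher (4627, against 4937 lower), which is the baseline for the family counts by any margin below. With the values as deposited, without quantile normalisation, the members' median was 0.00, that of all measured genes 0.07, and 37 of 73 members were higher. The sign of the members' median therefore rests on the scaling, and it lay 0.08 under the median of all measured genes in the main setting and 0.07 under it with the values as deposited.

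**Figure D1:**
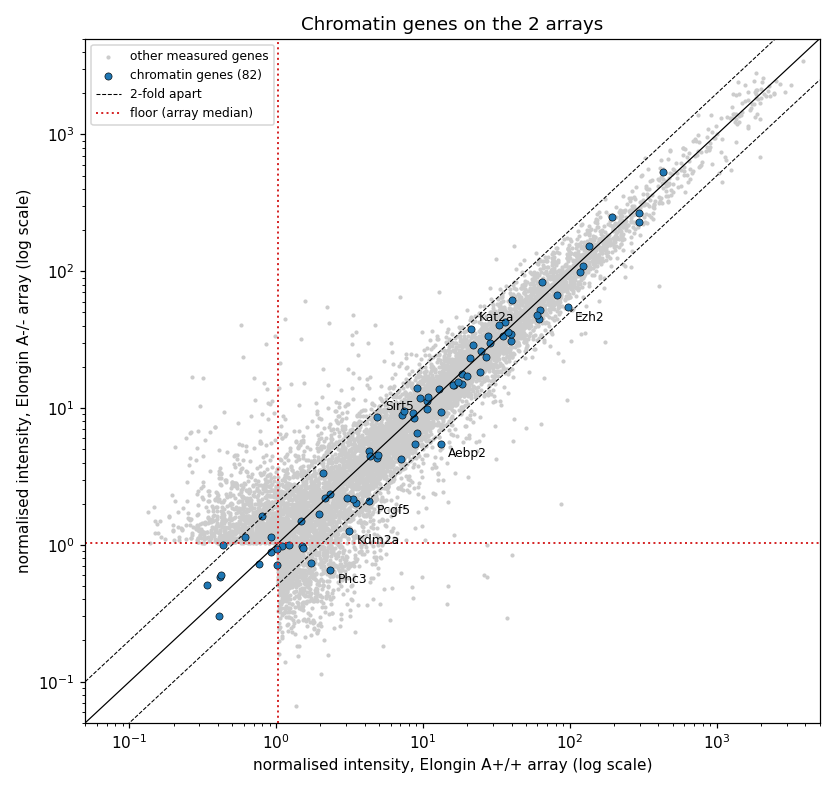
Normalised intensity of each gene on the Elongin A+/+ array (x axis) against the Elongin A-/- array (y axis), both on log scales. Blue points are the 82 chromatin genes, grey points the other measured genes, solid and dashed lines mark equal levels and 2-fold, and red dotted lines the floor. Kdm2a, Aebp2 and Pcgf5, above the floor on both arrays, lie beyond the lower dashed line, as do Phc3 and Prmt8 with 1 value under the floor, and the points beyond the upper line (Pcgf3 and Kdm5c) have 1 or both values under it.

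**Figure D2:**
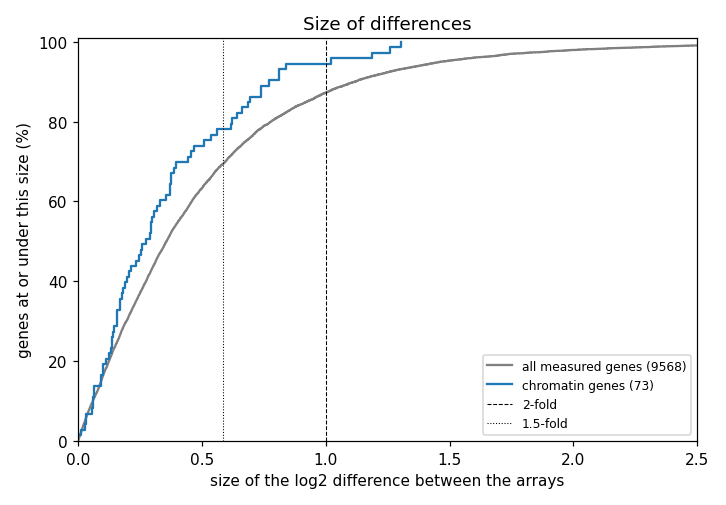
Share of genes (y axis, percent) whose log2 difference between the arrays is at or under the size on the x axis, for 73 chromatin genes (blue) and all 9568 measured genes (grey). The blue line reaches 78.1% at 1.5-fold and 94.5% at 2-fold, and the grey line 69.4% and 87.3%.

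The sequences printed here are promoters of some Polycomb members, and not of Aebp2 and Phc3, which had the largest Polycomb differences. Pcgf5 and Pcgf3 encode paralogous PCGF subunits of variant PRC1 and lay on opposite sides, and Ezh2 is the methyltransferase of PRC2. Each is a 300-base window at the most upstream start site in the RefSeq table of build GRCm38.p6, written 5′ to 3′ on the gene's strand, with CpG dinucleotides, the substrate of the DNA methyltransferases and the landing site of CXXC proteins such as Kdm2a and Kdm2b, in capitals. The Pcgf5 window lies at chr19:36348079-36348378 on the plus strand, that of Pcgf3 at chr5:108461009-108461308 on the plus strand and that of Ezh2 at chr6:47594981-47595280 on the minus strand.
Pcgf5: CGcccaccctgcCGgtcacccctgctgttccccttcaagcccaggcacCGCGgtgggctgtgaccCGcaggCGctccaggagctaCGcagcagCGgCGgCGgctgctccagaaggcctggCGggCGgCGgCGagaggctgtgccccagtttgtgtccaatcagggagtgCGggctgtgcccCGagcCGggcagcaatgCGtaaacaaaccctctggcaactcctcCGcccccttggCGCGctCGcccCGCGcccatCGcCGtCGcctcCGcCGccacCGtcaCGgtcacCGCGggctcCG
Pcgf3: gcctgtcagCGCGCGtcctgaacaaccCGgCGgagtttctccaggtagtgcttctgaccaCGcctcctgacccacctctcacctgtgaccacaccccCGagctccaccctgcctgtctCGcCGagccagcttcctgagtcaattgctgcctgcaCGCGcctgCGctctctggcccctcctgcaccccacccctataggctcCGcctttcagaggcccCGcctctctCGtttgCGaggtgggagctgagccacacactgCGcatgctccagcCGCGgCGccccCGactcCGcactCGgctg
Ezh2: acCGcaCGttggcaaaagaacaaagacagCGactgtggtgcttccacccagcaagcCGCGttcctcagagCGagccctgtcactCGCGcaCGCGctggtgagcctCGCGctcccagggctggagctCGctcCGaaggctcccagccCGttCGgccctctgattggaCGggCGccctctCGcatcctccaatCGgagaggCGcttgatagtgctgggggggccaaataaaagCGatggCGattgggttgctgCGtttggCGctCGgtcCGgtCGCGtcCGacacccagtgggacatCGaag

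The Pcgf5 window held 34 CpG dinucleotides, that of Ezh2 31 and that of Pcgf3 23. All 3 were thus rich in CpG, since 7.49%, 10.3% and 21.6% of all 27025 promoters in the table held as many or more. Pcgf5 has 3 start sites in the table, with 34, 5 and 35 CpG dinucleotides. Aebp2, not printed, also has 3, with 4 at the most upstream and 21 and 4 at the others. The array does not tell which start is used. Of the 82 members 75 had a promoter in the table, with a median of 23 CpG dinucleotides (interquartile range 15.5 to 31.5), against 16 for genes named on the array and 20 for measured genes. At least 10 were found in 66 of the 75 (88.0%), in 76.7% of promoters of measured genes and in 44.0% of all promoters. The retinoic acid receptor half-site AGGTCA, searched on both strands, was in 6 of the 75 windows (8.0%), in 12.3% of those of measured genes and in 16.0% of all, and in none of the 3 printed. A match or its lack is a description of these letters only.

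In PRC2 the accessory subunit gene Aebp2 and the catalytic subunit gene Ezh2 were the lower ones on the Elongin A-/- array. Aebp2, which encodes a zinc finger protein, had an intensity of 13.2 on the Elongin A+/+ array and 5.49 on the Elongin A-/- array, a log2 difference of -1.26 or 2.40-fold lower. Another probe of Aebp2 had 8.24 and 4.61 (-0.84), and the remaining one was below the floor on both arrays. Both measured probes of Aebp2 were therefore lower on the Elongin A-/- array, by unequal amounts. The mean over all 3 probes gave -0.50, under 2-fold. Ezh2, the catalytic subunit, had 96.2 and 54.9 (-0.81, 1.75-fold lower). The other core subunits were closer together: Eed, which reads the methyl mark, had 35.0 and 33.6 (-0.06), and Suz12, the scaffold, had 7.21 and 8.93 (0.31). Jarid2, the accessory subunit that shares a form of PRC2 with Aebp2, had 40.0 and 35.0 (-0.19). Ezh1, the alternative catalytic subunit, was below the floor on both arrays. In all, 4 of the 5 measured PRC2 genes were lower by any margin and 1 was higher, with a median of -0.19. The sign of Eed turned with the values as deposited (0.02). Aebp2 and Ezh2 both lie on chromosome 6 and Suz12 on chromosome 11, whose genes as a whole were shifted, as described further on. With each chromosome's median removed, Aebp2 was at -0.997, just under 2-fold, Ezh2 at -0.55 and Suz12 at -0.10.

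PRC1 genes were spread over both sides. Phc3, a polyhomeotic subunit of canonical PRC1, had 2.33 on the Elongin A+/+ array and was below the floor on the Elongin A-/- array, at least 2.27-fold lower. Phc1, its relative, had 1.48 on both arrays. Pcgf5 had 4.27 and 2.10 (-1.02, 2.03-fold lower), while Pcgf3 went the other way, from below the floor to 1.62, at least 1.58-fold higher. All 4 of these genes had intensities within a few times the floor, so their folds are approximate. Pcgf5, with 1 probe, passed 2-fold by a narrow margin, and did so in 6 of the 10 other settings that gave it a value. It fell short with the values as deposited (-0.87), centred on the median above the floor (-0.94) or with a loess trend removed (-0.99). With a pseudocount at the floor it was at -0.76. Pcgf6, a subunit of another variant PRC1, had 39.8 and 30.7 (-0.38), and Pcgf2 (Mel18), of canonical PRC1, had 1.10 and a value below the floor, at least 1.07-fold lower. The ubiquitin ligases at the heart of every PRC1 were closer: Rnf2 had 26.7 and 23.6 (-0.18) and Ring1 had 9.46 and 11.9 (0.33). The chromobox subunits, which bind the methyl mark made by PRC2, differed in direction. Cbx8 had 2.07 and 3.33 (0.69) and Cbx2 had 135.4 and 154 (0.18), both on chromosome 11, while Cbx6 had 61.4 and 45.1 (-0.44). Of 11 PRC1 genes, all measured, 5 were higher and 6 lower by any margin. The median was -0.09, and Phc3 and Pcgf5 were the 2 at least 2-fold lower. With each chromosome's median removed it was -0.23, with 4 higher and 7 lower, and without the genes of chromosomes 6, 8 and 11 it was -0.38.

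**Figure D3:**
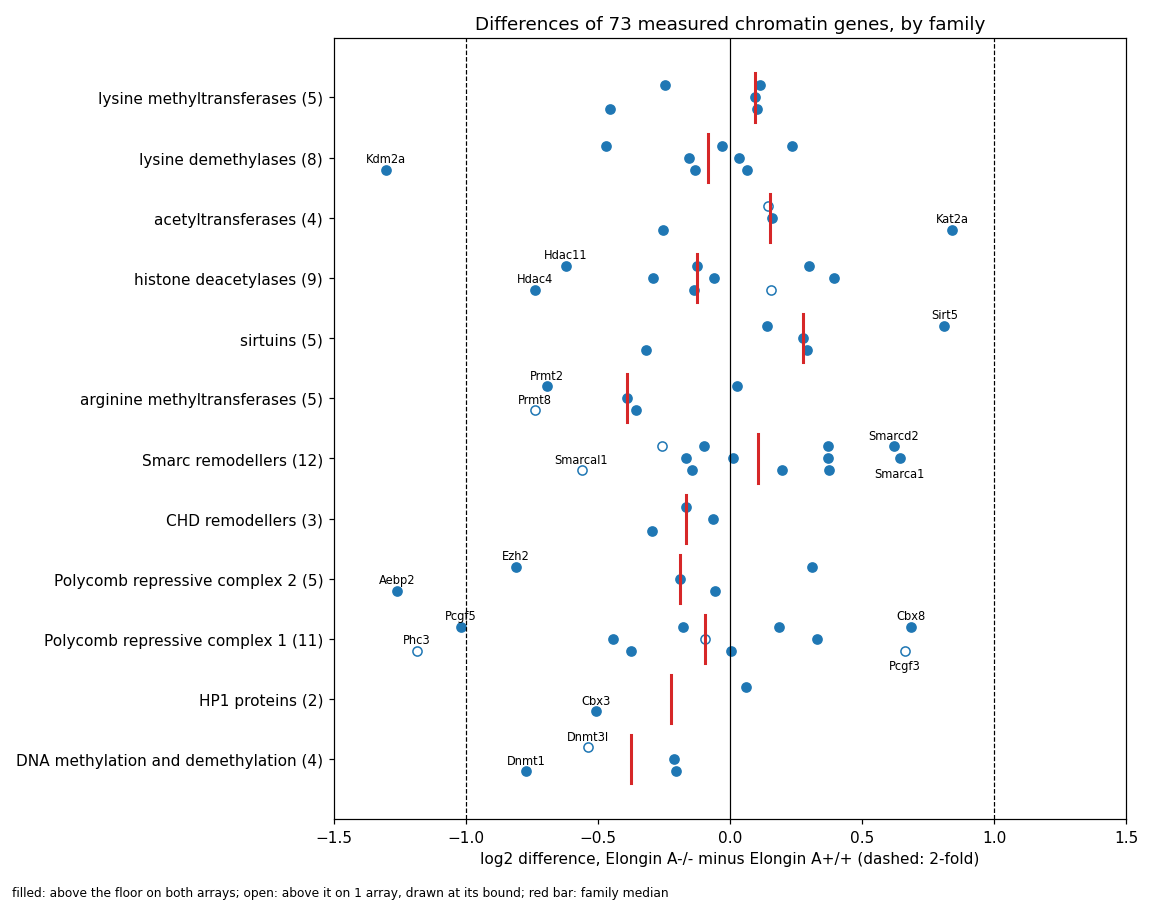
Log2 difference between the arrays (x axis) of each of the 73 measured chromatin genes, by family (y axis, number measured in parentheses). Filled points were above the floor on both arrays, open points on 1 and are drawn at their bound, and red bars are family medians. The points beyond the dashed 2-fold line are Kdm2a, Aebp2, Phc3 and Pcgf5, all on the lower side.

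Among lysine demethylases Kdm2a stood alone. This JmjC enzyme, which binds unmethylated CpG through a CXXC domain, had 3.14 on the Elongin A+/+ array and 1.27 on the Elongin A-/- array (-1.30, 2.47-fold lower), the second close to the floor. Its paralogue Kdm2b, which brings a variant PRC1 to CpG islands, had 17.3 and 15.5 (-0.16), and its other probe 4.19 and 2.83 (-0.57). Kdm4b, a demethylase of heterochromatin marks, had 9.09 and 6.56 (-0.47), and Kdm4a of the same subfamily 4.94 and 4.50 (-0.13). The remaining 4 measured demethylases all differed by less than 0.25 on the log2 scale. Kdm1a (LSD1) had 36.0 and 42.4 (0.23), its relative Kdm1b had 8.66 and 8.48 (-0.03), and Kdm8 had 2.14 and 2.19 (0.03). Kdm6a (UTX), which removes the methyl mark made by PRC2, had 28.6 and 29.9 (0.06). Kdm4d, Kdm5c and the Y-linked Kdm5d were below the floor on both arrays. The median of the 8 measured was -0.08 and turned sign with the values as deposited (0.07), as did the differences of Kdm4a (0.04) and Kdm1b (0.10).

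No lysine methyltransferase outside PRC2 was 1.5-fold apart. Setd1a, which methylates histone H3 at active promoters, had 3.04 and 2.22 (-0.46), and Kmt5a, the histone H4 monomethyltransferase, had 117 and 98.6 (-0.25). Kmt5c, which adds further methyl groups to that residue, had 8.54 and 9.25 (0.11). Setd3, an actin histidine methyltransferase despite its name, had 12.8 and 13.7 (0.09), and Setd4 had 10.6 and 11.4 (0.10). These 5 were the measured part of 7, with a median of 0.09, and Setd5 and Setd7 were below the floor on both arrays.

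Acetyltransferases and sirtuins held the members with the largest differences on the higher side in the main setting, Kat2a and Sirt5. Kat2a (GCN5), the acetyltransferase of the SAGA and ATAC coactivators, had 21.3 on the Elongin A+/+ and 38.1 on the Elongin A-/- array (0.84, 1.79-fold higher). It lies on chromosome 11, and with that chromosome's median removed its difference was 0.43. Its paralogue Kat2b (PCAF) was below the floor on the Elongin A+/+ array and at 1.13 on the other, at least 1.10-fold higher. Kat5 (TIP60) had 20.9 and 23.3 (0.16), and Kat14, an ATAC subunit, had 62.1 and 52.0 (-0.25). Kat6b and Kat7 were below the floor on both arrays. Among the NAD-dependent sirtuins 4 of 5 were higher by any margin, with a median of 0.28. Sirt5, a mitochondrial deacylase, had 4.86 and 8.53 (0.81, 1.75-fold higher), and Sirt3, another mitochondrial sirtuin, had 32.9 and 40.2 (0.29). Sirt2, mainly cytoplasmic, had 27.9 and 33.7 (0.28). Of the nuclear sirtuins Sirt1 had 10.9 and 12.0 (0.14) and Sirt6 had 59.7 and 47.9 (-0.32). The largest sirtuin difference was thus in a mitochondrial enzyme and not in a nuclear one.

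Histone deacetylases were close for the main nuclear enzymes and further apart for a few others. Hdac1, Hdac2 and Hdac3, the catalytic subunits of the large corepressor complexes, had 37.8 and 36.3 (-0.06), 294 and 267 (-0.14), and 82.1 and 67.0 (-0.29). The sign of Hdac1 turned with the values as deposited (0.03). Hdac4, a class IIa enzyme that shuttles between nucleus and cytoplasm, had 7.10 and 4.25 (-0.74, 1.67-fold lower), while Hdac5 of the same class, on chromosome 11, had 21.9 and 28.7 (0.39). With that chromosome's median removed Hdac5 was at -0.02. Hdac11 had 3.33 and 2.16 (-0.62) and lies on chromosome 6. Hdac10, known as a polyamine deacetylase, had 431 and 530 (0.30), and Hdac6, the tubulin deacetylase, had 16.0 and 14.7 (-0.13). Hdac8 was at least 1.11-fold higher, from below the floor to 1.14, and Hdac7 was below the floor on both arrays. In this family 3 of 9 measured genes were higher and 6 lower, with a median of -0.13, and none was 2-fold apart.

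Arginine methyltransferases were mostly lower on the Elongin A-/- array, 4 of 5, with a median of -0.39, and the 4 above the floor on both arrays were within 2-fold. Prmt1, which makes most asymmetric dimethylarginine in cells, had 294 and 230 (-0.36), and Prmt3, whose substrate is a ribosomal protein, had 24.2 and 18.5 (-0.39). Prmt2 had 8.81 and 5.45 (-0.69, 1.62-fold lower). Prmt8, a membrane-bound and largely neural enzyme, had 1.71 and a value below the floor, at least 1.67-fold lower, and was over 2-fold lower (-1.21) with no floor. Prmt6 had 4.35 and 4.44 (0.03). The family median stayed between -0.39 and -0.31 under the other settings tried.

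DNA methyltransferases were all 4 lower on the Elongin A-/- array, none by 2-fold, with a median of -0.37. Dnmt1, which copies methylation after replication, had 3.47 and 2.03 (-0.77, 1.71-fold lower). The de novo enzymes differed less, Dnmt3b with 19.9 and 17.3 (-0.20) and Dnmt3a with 1.96 and 1.69 (-0.21), and the second probe of Dnmt3b had 2.67 and 2.77 (0.05). Dnmt3l, their catalytically inactive cofactor, had 1.49 and a value below the floor, at least 1.45-fold lower. Dnmt1, Dnmt3a and Dnmt3l all had low intensities, so only Dnmt3b was well above the floor. No probe with 1 symbol matched the Tet demethylation enzymes.

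The Smarc genes leaned slightly higher, 7 of 12, with none 2-fold apart and a median of 0.10. Smarca4 (BRG1), the main ATPase of SWI/SNF in ES cells, had 7.38 and 9.56 (0.37), and its alternative Smarca2 (BRM) had 4.27 and 4.89 (0.20). The subunit genes Smarcb1 at 16.3 and 14.7 (-0.14), Smarcc1 at 2.33 and 2.34 (0.01) and Smarcc2 at 10.6 and 9.85 (-0.10) lay nearer to equality. Among the alternative Smarcd subunits Smarcd2 had 40.5 and 62.2 (0.62), Smarcd1 had 4.84 and 4.31 (-0.17, but 0.00 with the values as deposited), and Smarcd3, the heart and neuron form, had 1.23 and a value below the floor, at least 1.20-fold lower. Smarce1 had 64.7 and 83.6 (0.37), and its other probe 18.6 and 25.8 (0.47). The ISWI ATPases were both higher: Smarca1 (SNF2L) had 9.04 and 14.1 (0.64, 1.56-fold higher) and Smarca5 (SNF2H) had 193 and 250 (0.37), though the other probe of Smarca5 had 23.1 and 20.3 (-0.18). Smarcal1, a DNA-annealing helicase, was at least 1.48-fold lower from 1.52. Smarcd2 and Smarce1 lie on chromosome 11 and Smarca5 on chromosome 8. With each chromosome's median removed, 5 of the 12 were higher and the median was -0.04, so the lean of this family did not hold its direction.

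No CHD remodeller or HP1 gene was 1.5-fold apart. Chd4, the ATPase of the NuRD complex, had 123.4 and 110 (-0.17), and its other probes were at -0.38 and -0.01. Chd8 had 18.4 and 17.6 (-0.06, but 0.06 with the values as deposited) and Chd1l, a remodeller of DNA repair, had 18.4 and 15.0 (-0.30). Of the HP1 proteins, which bind methylated histone H3 in heterochromatin, Cbx3 had 13.3 and 9.35 (-0.51) and Cbx5 had 24.95 and 26.0 (0.06). Cbx3 and Chd4 lie on chromosome 6, and with its median removed they were at -0.24 and 0.10.

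**Figure D4:**
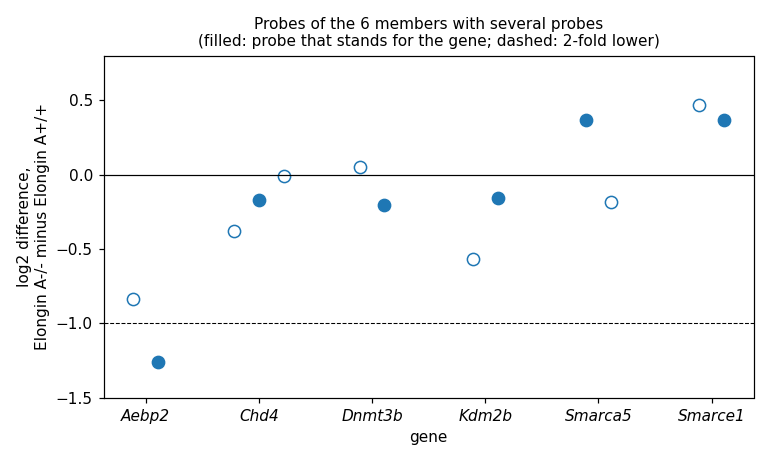
Log2 difference (y axis) of each probe above the floor on both arrays, for the 6 members with more than 1 probe (x axis). Filled points are the probes that stand for the gene and open points the others. Both probes of Aebp2, Kdm2b and Smarce1 and all 3 of Chd4 lie on 1 side of 0, and those of Smarca5 and Dnmt3b on both sides.

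On chromosomes 11 and 6 most members shared the direction of the other genes there. On chromosome 11, 7 of 8 measured members were higher on the Elongin A-/- array: Kat2a, Cbx8, Smarcd2, Hdac5, Smarce1, Suz12 and Cbx2. Pcgf2, a bound at the floor, was the other (at least 1.07-fold lower). Their median was 0.38, and that of all 803 measured genes of the chromosome was 0.41, with 76.8% higher. On chromosome 6, 6 of 7 were lower, namely Aebp2, Ezh2, Prmt8, Hdac11, Cbx3 and Chd4, while Phc1 was at 0.00. Their median was -0.62, and that of all 518 measured genes was -0.26, with 32.0% higher. Smarca5 (0.37) was the only member on chromosome 8, where the median of 522 measured genes was 0.43. The 57 members on other chromosomes had 22 higher and 35 lower, with a median of -0.13, where 7725 measured genes had -0.05 and 44.5% higher. These 57 include Kdm2a and Pcgf5, both on chromosome 19, and Phc3 on chromosome 3. When each chromosome's median was removed, the direction turned for Cbx2, Hdac5, Smarce1 and Suz12 of chromosome 11, for Smarca5 and Chd4, and for Hdac1 and Kdm1b, whose differences were near 0. What sets the shift of whole chromosomes was not tested, and with 1 array per genotype it cannot be told apart from a property of the cell lines.

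**Figure D5:**
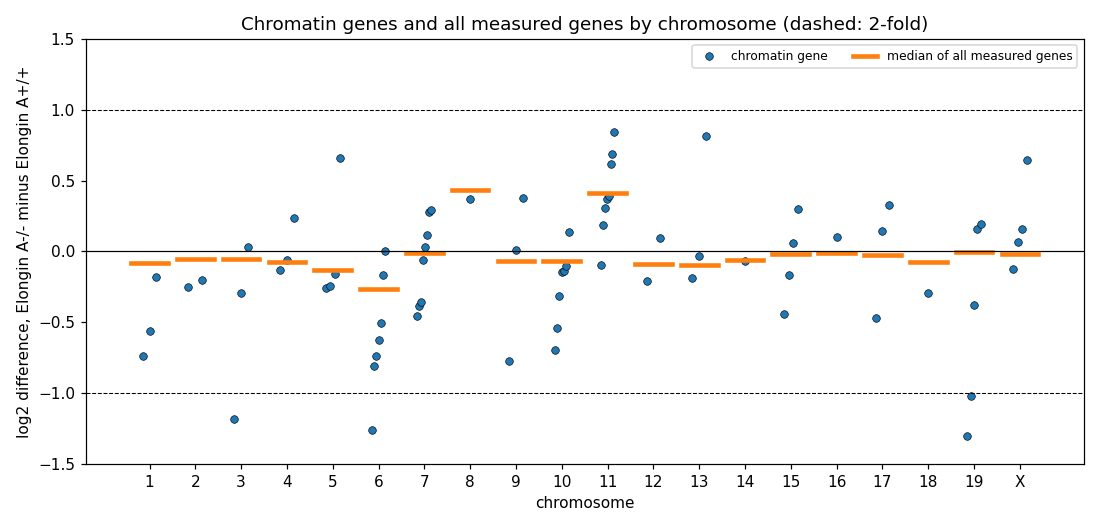
Log2 difference (y axis) of each measured chromatin gene (blue points, bounds drawn at their bound) by chromosome (x axis), with the median of all measured genes of that chromosome as an orange bar. Points on chromosome 11 sit mostly above 0 around a bar at 0.41, and those on chromosome 6 mostly below 0 with a bar at -0.26.

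Partners and relatives of these enzymes that the family names do not catch were mostly close as well. Of 153 such genes listed, 107 were named on the array and 97 measured, with a median of -0.05. Within 1.5-fold were 78 of the 97 (80.4%), and 69.4% of all measured genes. At least 2-fold higher were 2 and lower 1, where 6.76% and 5.97% of all measured genes were. The lower one was Phf1, a PRC2 accessory protein, with 3.09 and 1.10 (-1.49, 2.81-fold lower), the second close to the floor. Of the other PRC2 accessory genes in the same list, Mtf2 had 109 and 92.7 (-0.24), Epop was at 0.08 and Phf19 was below the floor on both arrays. Of the 12 measured Polycomb partners in that list 5 were higher and 7 lower, with a median of -0.09. Msl3, of the MSL acetyltransferase complex, had 1.14 and 2.35 (1.04), and the oocyte linker histone H1f8 was at least 16.6-fold higher from below the floor. Among 12 measured SWI/SNF partners none was 2-fold apart (7 higher, 5 lower), and the same held for 17 corepressor subunits (10 higher, 7 lower), 12 other methyltransferase and COMPASS genes (3 higher, 9 lower) and 7 methyl-DNA readers and cofactors (2 higher, 5 lower). At 1.5-fold, 3 of the 12 SWI/SNF partners were lower (Arid1a, Bcl7a and Bcl7b) and 1 higher (Dpf3). Of all measured genes 14.8% were at least 1.5-fold lower and 15.8% higher. Arid1a had 110 and 65.6. Within 1.5-fold were 8 of the 12 SWI/SNF partners (66.7%), near the 69.4% of all measured genes. Of the corepressor genes 1 was at least 1.5-fold higher (Gatad2b) and 1 lower. The lower was Tbl1xr1, with 4.57 and 2.29, just short of 2-fold.

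Markers of blood and endothelium, mesoderm, neural progenitors and neurons were mostly at least 2-fold apart between the arrays, as were 2 of 6 endoderm, 2 of 5 pluripotency and 1 of 5 division markers measured. Summed over 13 blood and endothelial markers, intensity was 12.4 on the Elongin A+/+ and 154 on the Elongin A-/- array. Cldn5 (60.2) and Kdr (54.4) made up most of the second sum. Of 9 measured, 7 were at least 2-fold higher, where 6.76% of all measured genes were. The other 2, Klf1 and Spi1, were above the floor on the Elongin A+/+ array alone, at least 1.48-fold and 1.71-fold lower. The floor was not reached on either array by Cdh5, Tie1, Gata1 and Ptprc. Over 11 neural progenitor markers the sums were 307 and 216, with 7 of 11 at least 2-fold lower, where 5.97% of all measured genes were. In that list 3 were higher: Pax6 (0.46), Hes5 with 75.6 and 125 (0.72), and Olig2 from below the floor. Over 8 neuronal markers the sums were 381 and 224, with 5 of 7 measured at least 2-fold lower. Tubb3 was at -0.09, and Dcx was higher from below the floor. Mesoderm markers summed to 33.7 and 90.0 with 4 of 4 measured at least 2-fold higher, endoderm markers to 21.1 and 24.5, and pluripotency markers to 28.4 and 26.4. Division markers summed to 666 and 586, and Pcna (486 and 395) made up most of both sums. Fewer cells of a type and less RNA per cell cannot be told apart in such bulk samples, and the part of cell composition in the differences of the chromatin genes was not tested.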

How the data were processed

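The authors deposited 1 column of linear-scale intensities per array. Per the labels' protocols, digoxigenin-labelled cRNA was made from total RNA with an Applied Biosystems chemiluminescent kit. Background correction, filter and the authors' normalization were not given in the sources used here. Sample titles gave each array's genotype.

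Gene names came from the platform annotation: 14253 with 1 symbol were used, 243 with several and 17944 with none were not. Genes were placed on chromosomes through the RefSeq table of GRCm38.p6, which held all 82 members. Log2 intensities were quantile normalised, since the deposited 25th percentiles differed by -0.12 and the 75th by 0.15 on the log2 scale. A gene was represented by its probe with the highest mean log2 value. Values under the floor (array median) were set to it. Genes were counted at 2-fold, with no test and no p-value, because each genotype has 1 array. Any member could be named, and other genes by fixed lists and size. The members and lists were chosen with earlier results of these data known. Calculations used Python 3.11.15, numpy 2.4.6 and pandas 2.3.3 and were tested on simulated data. Alternatives of scaling, floor, probe choice, chromosome and fold were run.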

Additional observations from a re-analysis of the deposited data

How the results depend on the processing

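No member was at least 2-fold higher in 9 of the 11 other settings. With the floor at the 25th percentile there was 1 (Pcgf3), and with no floor 2 (Kdm5c and Pcgf3). The count of members at least 2-fold lower was 4, and 3 to 5 in 9 settings, where 4.69% to 10.3% of all measured genes were. It was 1 of 73 (Aebp2) with a pseudocount at the floor, where 4.13% were. At the 75th-percentile floor it was 1 of 50 (Aebp2), where 2.19% were, so that count was near the share of all genes. Counted at 1.5-fold there were 6 higher and 10 lower, where 15.8% and 14.8% of all measured genes were, and at 3-fold 0 lower. The median of measured members ranged from -0.13 without chromosomes 6, 8 and 11 to 0.00 with the values as deposited. Of the 73 members, 61 kept their sign in each setting that gave them a value, and 6 were at least 2-fold apart in any. Phc3 was at -1.83 with no floor or the lower floor, and Kdm2a at -0.86 with the pseudocount. The causes were not tested. Dim members, below or near the floor, limit what these arrays can show, and precision is limited by having 1 array per genotype. No paired analysis was possible because each genotype has 1 array and the labels give no replicate numbers.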

Other observations

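The 9 members below the floor on both arrays had these normalised intensities, given as values only. Kdm5c, an X-linked demethylase, had 0.44 on the Elongin A+/+ array and 1.00 on the Elongin A-/- array. Ezh1 had 0.34 and 0.51, Kdm4d 0.41 and 0.58, Setd5 0.42 and 0.60, and Kdm5d 0.41 and 0.30. Hdac7 had 0.76 and 0.72, Kat6b 0.92 and 0.88, Kat7 1.01 and 0.94, and Setd7 1.00 and 0.72. Their promoters in the RefSeq table held a median of 15 CpG dinucleotides, and 24 was the median over the 66 measured members that have one there.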
